A study of Rattus norvegicus with 16 samples.

Results

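The question addressed here is whether the colon of a rat that carries the Pirc mutation of Apc responds to dextran sodium sulfate (DSS) in the way that the colon of a wildtype rat does. The quantity is the genotype by DSS interaction, which is the DSS effect in Pirc rats (DSS minus control) minus the DSS effect in wildtype rats. All 16 of the 16 arrays of the series entered it, 4 from each of 4 groups. Each array held RNA from the normal distal colon of 1 male (ACIxF344)F1 rat of 97 days, either wildtype or Pirc/+, and either without treatment or after 2 courses of DSS, dissolved at 4% in its water. The courses covered days 40 to 47 and days 54 to 61 of age, so that 36 days had passed since the last DSS.

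Pirc/+ rats carry 1 germline nonsense allele of Apc in every cell, beside 1 wildtype allele, and develop adenomas of the intestine and colon. A nonsense allele is still transcribed, so the level of Apc cannot check the genotype labels. The tissue was checked against the markers of colon epithelium. Of 11 markers 9 were measured (Cdx1 and Muc2 were not), and all 9, which include Epcam, Cdh1, Vil1, Krt20, Car1 and Aqp8, were well above background on all 16 arrays. All 5 markers of small intestine (Fabp6, Lct, Apoa4, Apoa1 and Alpi) were so as well. Detection of these markers therefore shows intestinal epithelium but cannot tell colon from small intestine, and the colon is taken from the labels. In bulk tissue, fewer cells of a type and less RNA per cell cannot be told apart. The labels do not say whether the rats of a group shared a litter or a cage.

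The level of a probe is given throughout as log2 of its signal minus log2 of the 75th percentile of its array, so that 0 is the brightness of the 75th percentile and a difference of 1 is a factor of 2. The signal at the 75th percentile ranged from 875.4 to 2194 over the arrays. A difference is said to be called where its adjusted p was 0.05 or less and its size at least a factor of 2. The closest array of 14 rats belonged to the same group, whereas DSS-treated wildtype rat 26 and untreated Pirc rat 23 lay closest to untreated wildtype rat 25 (correlations of 0.988 each). Each of the 2 slides and each of the 2 array rows held 2 rats of every group. Each group lay in 1 column of the slides, so array column and group cannot be told apart.

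DSS is a detergent-like polymer that erodes the lining of the colon and lets bacteria reach the tissue beneath it, where macrophages and neutrophils gather. After it is withdrawn the epithelium heals, partly through regenerating crypts. Alpha-defensins are short cationic peptides that kill bacteria. One set of them, the enteric defensins, is secreted by the Paneth cells at the base of the small intestinal crypts, which need Wnt signalling through beta-catenin and TCF factors, the pathway that Apc restrains. The other set, which in the rat includes the neutrophil peptides, is packed into the granules of neutrophils as they form in the bone marrow. The healthy colon holds few or no Paneth cells.

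Of the 9 alpha-defensins measured, 4 have a promoter in the RefSeq table of the GRCr8 assembly. The promoters of 3 of them are printed because the genes responded to DSS in 1 or both genotypes. The promoter of Defa9 differs from those of RatNP-3b and Np4, which resemble each other. That of Tifa is printed because Tifa was the called gene of the NF-kappaB pathway. Each sequence is the run of 250 bases that ends just before the transcription start, written 5′ to 3′ on the strand of the gene. Defa9 lies on the plus strand at chr16:77184018-77184267, RatNP-3b on the minus strand at chr16:77248978-77249227, Np4 on the minus strand at chr16:77199643-77199892 and Tifa on the plus strand at chr2:218932636-218932885. Capitals mark matches to CTTTGAT, a core of the TCF motif, and to a form of the NF-kappaB motif, GGG and TTTCC with any bases at the 2 places between them, each searched on both strands.
Defa9: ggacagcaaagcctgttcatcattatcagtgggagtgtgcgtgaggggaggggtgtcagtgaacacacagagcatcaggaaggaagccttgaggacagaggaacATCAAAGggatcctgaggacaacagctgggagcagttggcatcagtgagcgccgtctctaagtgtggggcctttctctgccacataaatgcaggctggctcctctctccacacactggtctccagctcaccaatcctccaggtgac
RatNP-3b: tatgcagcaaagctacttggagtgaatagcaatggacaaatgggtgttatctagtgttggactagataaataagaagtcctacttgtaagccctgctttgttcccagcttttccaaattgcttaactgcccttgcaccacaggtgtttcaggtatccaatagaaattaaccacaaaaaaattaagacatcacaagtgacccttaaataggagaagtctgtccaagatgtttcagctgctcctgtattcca
Np4: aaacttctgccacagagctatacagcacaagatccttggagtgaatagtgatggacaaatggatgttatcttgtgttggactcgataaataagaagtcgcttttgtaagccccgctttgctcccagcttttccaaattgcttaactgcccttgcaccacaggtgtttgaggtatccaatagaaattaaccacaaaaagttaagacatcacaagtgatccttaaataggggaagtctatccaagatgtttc
Tifa: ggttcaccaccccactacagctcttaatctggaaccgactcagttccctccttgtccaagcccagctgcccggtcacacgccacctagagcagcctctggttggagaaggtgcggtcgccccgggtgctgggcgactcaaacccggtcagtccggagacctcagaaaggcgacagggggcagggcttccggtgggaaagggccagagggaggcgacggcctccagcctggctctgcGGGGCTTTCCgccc

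The Defa9 promoter holds 1 match to the TCF letters, on the strand opposite to the gene, from 146 to 140 bases before the start. Such a match occurs in 3.15% of all 33469 promoter windows of this length. The windows of RatNP-3b, Np4, Defa11 and Tac1 hold neither motif. Those of Tbxt, Slc30a2 (2 windows), Rpl39l1, Cxcl17, Alpl and Slc26a3, searched in the same way, hold neither as well. The Tifa promoter holds 1 match to the NF-kappaB letters, from 14 to 5 bases before the start, as 1.3% of all windows do. In global alignments the promoter of RatNP-3b was identical to that of Np4 at 79.3% of the aligned columns and to that of Defa11 at 89.4%, but to that of Defa9 at 48.8%. These are descriptions of letters and were not tested.

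Of the 30367 probes, more were called for DSS in Pirc than in wildtype rats. In Pirc rats 2265 probes (7.46%) were called, 1672 higher with DSS (5.51%) and 593 lower (1.95%). In wildtype rats 841 probes (2.77%) were called, 719 higher (2.37%) and 122 lower (0.402%). The wildtype count was 235 under normexp, another background correction, and with 1 rat left out it ran from 375 without wildtype rat 14 to 1178 without wildtype rat 26, falling also to 446, 456 and 503 without wildtype rats 18, 17 and 21. Both genotypes shared 648 of these probes (2.13%), which is 28.6% of the Pirc calls and 77.1% of the wildtype calls. Of the 648, 574 were higher in both genotypes, 72 were lower in both, and 2 (0.00659%) were opposite, higher with DSS in Pirc rats and lower in wildtype rats. Those 2 are Defa8 and Defa9. The 646 shared calls of the same direction had a median DSS effect of 2.07 in Pirc rats and 1.89 in wildtype rats.

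The interaction itself was called at 13 probes (0.0428%), which stand for 10 named genes and 2 probes without a name here. With 1 rat left out the count ran from 8 (without rat 11 or 25) to 63 (without Pirc rat 12), and it was 35 without rat 26, 27 without rat 16 or 22 and 25 without rat 24. At all 13 the interaction was positive, and at all 13 the level was called higher with DSS in Pirc rats. No probe (0) was called with a negative interaction by limma, and none (0) by an analysis of variance without moderation, which called 8 probes. At an unadjusted p below 0.05 there were 1319 positive (4.34%) and 1915 negative probes (6.31%). At the same threshold, other settings of the processing gave up to 5 negative calls (normexp), a fit with 4 slide-by-row blocks gave those of Slc30a10 and Myh7, and leaving out 1 rat at a time between 0 and 11, the most without wildtype rat 26. At a looser adjusted p of 0.20 or less the interaction reached a factor of 2 at 170 probes (0.56%). Of these, 83 probes (0.273%) had a positive and 87 (0.286%) a negative interaction. The positive set had a median DSS effect of 2.69 in Pirc rats and 0.05 in wildtype rats. The negative set had a median effect of -1.03 in Pirc rats and 0.37 in wildtype rats. Over all probes the medians were 0.04 and 0.09.

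**Figure D1:**
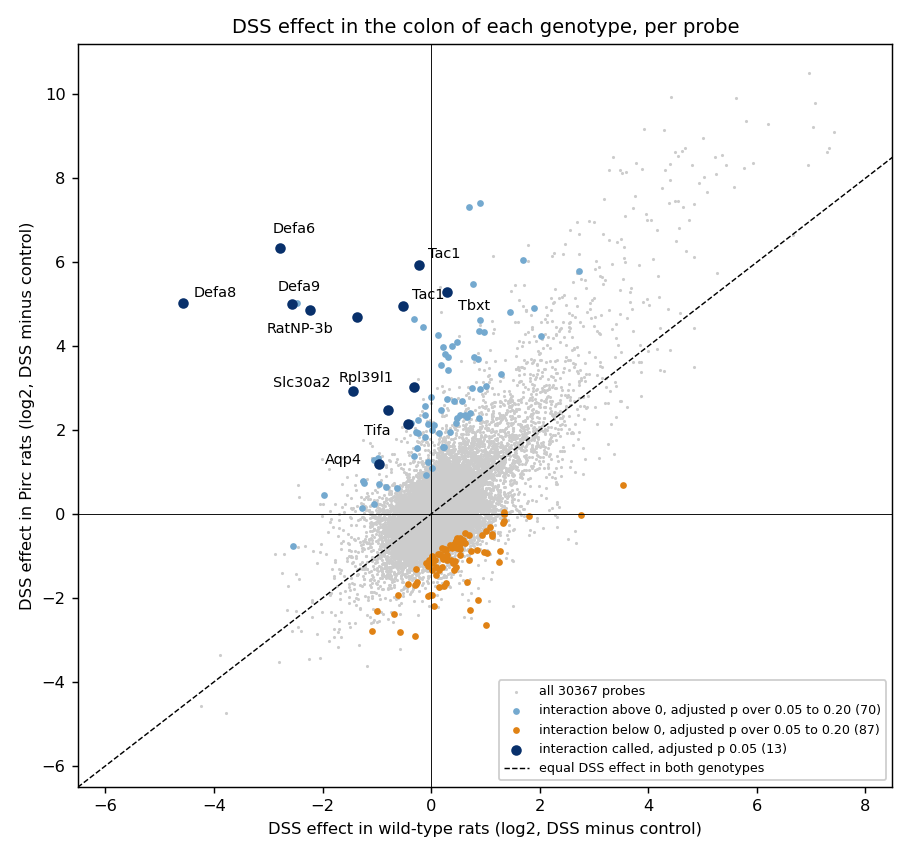
Each point is 1 of 30367 probes, with its DSS effect in wildtype rats on the horizontal axis and in Pirc rats on the vertical axis (log2, DSS minus control, 4 rats a group). The 13 called probes, in dark blue, all lie above the dashed line of equal effect, and Defa8, Defa9, Defa6 and RatNP-3b lie at the upper left, with positive values in Pirc rats and negative values in wildtype rats.

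The alpha-defensins held the largest interactions on the arrays. Defa8, an enteric alpha-defensin, stood at -1.76, -0.78, -1.48 and -1.04 in the untreated Pirc rats and at 3.75, 2.21, 5.58 and 3.54 in the DSS-treated Pirc rats. In untreated wildtype rats it stood at -3.19, -1.52, -2.84 and -1.89, and in DSS-treated wildtype rats at -5.80, -7.63, -7.97 and -6.38. Treated and untreated rats did not overlap in either genotype, and the order was reversed between the genotypes. Defa8 rose 32.8-fold with DSS in Pirc rats (log2 5.04, SE 0.63, adjusted p = 0.000197) and fell in wildtype rats, where its fold was 23.9 (log2 -4.58, SE 0.63, adjusted p = 0.00226), with 2 of the 4 DSS-treated wildtype arrays well above background. The interaction was 9.62 (SE 0.89, 95% interval 7.71 to 11.5, adjusted p = 0.000375).

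Defa9, another enteric alpha-defensin, behaved alike and was well above background on all 16 arrays. Its levels were -1.72, -0.73, -0.95 and -1.10 in untreated Pirc rats and 3.65, 2.40, 5.65 and 3.84 in DSS-treated Pirc rats. They were -2.94, -1.66, -2.73 and -1.72 in untreated wildtype rats and -4.41, -5.05, -5.60 and -4.26 in DSS-treated wildtype rats. Again the treated rats of the 2 genotypes lay on opposite sides of their controls with no overlap. Defa9 rose 32.2-fold in Pirc rats (adjusted p = 0.000105) and fell in wildtype rats (log2 -2.57, SE 0.54, adjusted p = 0.018), and the interaction was 7.57 (SE 0.77, adjusted p = 0.000836).

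RatNP-3b, a member of the rat neutrophil defensin family, stood at -2.15, -0.74, -0.79 and -0.87 in untreated Pirc rats, 3.82, 2.351, 5.54 and 3.20 in DSS-treated Pirc rats, -2.31, -1.83, -3.01 and -1.75 in untreated wildtype rats, and -3.50, -4.03, -5.75 and -4.53 in DSS-treated wildtype rats. Groups did not overlap within either genotype. The rise in Pirc rats was 29.1-fold (adjusted p = 0.000199), the wildtype difference of -2.23 (SE 0.61) did not pass (adjusted p = 0.0581), and the interaction was 7.09 (SE 0.86, adjusted p = 0.00377). Whether the probes of the alpha-defensins also bind one another's targets was not tested.

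Defa6 stood at -3.87, -2.05, -3.78 and -2.23 in untreated Pirc rats and at 3.92, -0.02, 5.99 and 3.56 in DSS-treated Pirc rats. Untreated wildtype rats held -6.95, -4.98, -6.14 and -4.77. In DSS-treated wildtype rats Defa6 was not well above background on any array (0 of 4), so their level was at least 4.09-fold lower than in the wildtype controls (adjusted p = 0.122). It rose 81.1-fold in Pirc rats (adjusted p = 0.000527), and the interaction was 9.13 (SE 1.31, adjusted p = 0.0178). Here and below, where a group was not well above background, the fitted interaction takes its dim levels as they were read. The call was lost without rats 11, 17 or 25, with a common floor for dim probes, in a fit with 4 slide-by-row blocks and in the analysis of variance. Pirc rat 16 was the lowest of the DSS-treated Pirc rats for Defa6.

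The other 5 alpha-defensins measured did not pass for the interaction. Defa24 ran from -1.02 to 0.61 in untreated and from 0.52 to 7.48 in DSS-treated Pirc rats, and from -6.04 to -2.54 in untreated and from -7.12 to -5.64 in DSS-treated wildtype rats. Its interaction was 7.49 (SE 1.61, adjusted p = 0.119). Defal1 had a DSS effect of 5.42 in Pirc rats (adjusted p = 0.00426) and was not well above background in either wildtype group, with an interaction of 5.27 (adjusted p = 0.26). Rat 16 was again the lowest of the treated Pirc rats for both genes, at 0.52 and -2.35. Np4, neutrophil peptide 4, was well above background only in DSS-treated Pirc rats (4 of 4 arrays, 0 of 4 in each other group), was at least 13.4-fold higher there than in Pirc controls (adjusted p = 0.000141), and had an interaction of 3.76 (adjusted p = 0.0761). Defa11 was at 0.43 (adjusted p = 0.87) and Defa5, which no array showed well above background, at 0.11 (adjusted p = 0.96).

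For the 9 genes together, 4 were called for the interaction, 7 were called higher with DSS in Pirc rats, and 2 were called lower in wildtype rats. Of all probes, 0.0428%, 5.51% and 0.402% were called in these ways. The median interaction was 7.09 against -0.06 over all probes. On average over the 9 genes, the untreated Pirc rats held levels from -4.29 to -3.34 and the untreated wildtype rats from -6.06 to -5.00.

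Markers of the cells that make these peptides are given beside them. Of the 5 Paneth cell markers, Mmp7, Pla2g2a, Lyz2 and Itln1 were well above background on all 16 arrays, and Habp2 on 3 arrays of DSS-treated Pirc rats and on no other (0 of 4 in each other group). The median interaction of the 5 was 1.88. Their summed linear signal, relative to the 75th percentile, ran from 117.5 to 168.8 in untreated and from 114 to 192.9 in DSS-treated Pirc rats, and from 94.3 to 202 in untreated and from 34.6 to 118.4 in DSS-treated wildtype rats. This sum mainly follows its brightest member, Itln1, a lectin of secretory cells, which went the other way from Mmp7, Pla2g2a and Lyz2. Itln1 fell by 1.32 in Pirc rats (adjusted p = 0.0227) and was at -1.24 in wildtype rats (adjusted p = 0.0708). Of the neutrophil markers, 5 of 6 were measured (Mpo was not), none (0 of 5) was well above background on all arrays, and Elane was so on none. Their sum ran from 0.021 to 0.036 in untreated and from 0.027 to 0.062 in DSS-treated Pirc rats, and from 0.022 to 0.042 and from 0.018 to 0.046 in the wildtype groups. In the wider list of 14 neutrophil genes measured, 12 had a positive interaction, with a median of 0.79, and none (0) was called for it. Mmp9, Hp, Fcgr3a and Ncf4 were among those called higher in Pirc rats, and Ncf4 was also called in wildtype rats. Mmp9, a gelatinase of neutrophil granules, was at least 5.24-fold higher with DSS in Pirc rats (adjusted p = 0.000927) and was not well above background in either wildtype group, with an interaction of 1.75 (adjusted p = 0.337). The part of either cell type in the defensin differences was not tested.

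A list of Paneth cell products, which overlaps the markers above (Mmp7 is in both), held 11 measured genes. Of these 11, none (0) was called for the interaction, 6 had a positive and 5 a negative one, and their median interaction was 0.44. Among the negative ones Reg3a was at -0.36 in Pirc rats (adjusted p = 0.572) and 0.61 in wildtype rats (adjusted p = 0.398). Its interaction was -0.97 (adjusted p = 0.489). Habp2, a serine protease that binds hyaluronan, was at least 22.7-fold higher with DSS in Pirc rats (adjusted p = 0.00373), although Pirc rat 16 stood at -8.22, and its interaction was 4.64 (SE 1.35, adjusted p = 0.262). Mmp7, the matrix metalloproteinase that activates enteric defensins in mice, lay between -3.50 and -2.74 in untreated and between 1.78 and 3.43 in DSS-treated Pirc rats, and between -5.34 and -3.87 in untreated and between -3.06 and -0.67 in DSS-treated wildtype rats. It rose in both genotypes (5.79, adjusted p = 3.32e-05, and 2.73, adjusted p = 0.0062), and its interaction of 3.06 did not pass (adjusted p = 0.119). Pla2g2a, a secreted phospholipase that kills bacteria, also rose in both (4.44 and 2.57, adjusted p = 4.7e-05 and 0.00402), as did Lyz2, a lysozyme made by macrophages (3.66 and 2.29). The interactions of Pla2g2a and Lyz2 were 1.88 (adjusted p = 0.273) and 1.37 (adjusted p = 0.393).

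**Figure D2:**
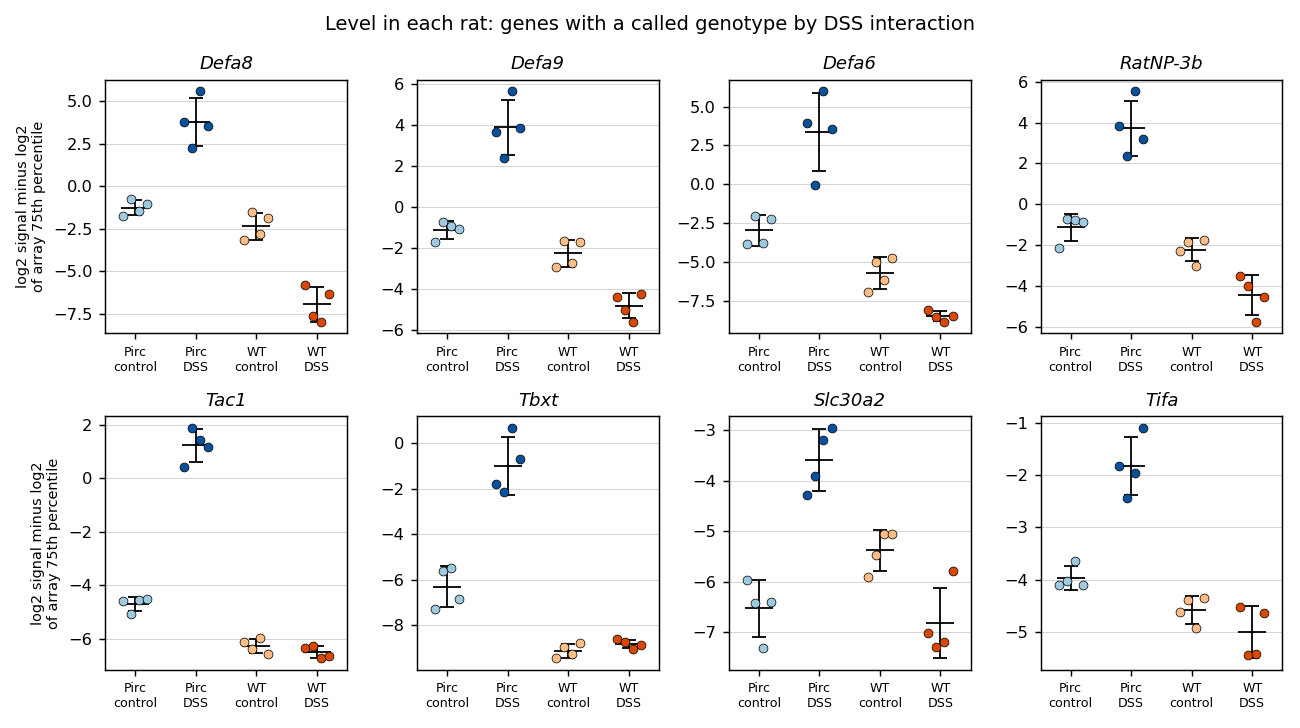
Levels of 8 genes called for the interaction in each of the 16 rats, by group (vertical axis: log2 signal minus log2 of the 75th percentile of the array, with its own range in each panel; points are rats, bars the group mean and SD). In every panel the DSS-treated Pirc rats lie above all other rats, and for Defa8, Defa9, Defa6 and RatNP-3b the DSS-treated wildtype rats lie below all other rats. Levels of Defa6 in DSS-treated wildtype rats and of Tbxt in both wildtype groups were not well above background.

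Tac1 gave the lowest adjusted p. It encodes the precursor of substance P and neurokinin A, neuropeptides of enteric neurons and of some enteroendocrine cells. On the brighter probe the untreated Pirc rats stood at -4.61, -5.09, -4.56 and -4.53 and the DSS-treated Pirc rats at 0.43, 1.89, 1.45 and 1.18. The untreated wildtype rats stood at -6.12, -6.37, -5.98 and -6.59 and the DSS-treated wildtype rats at -6.35, -6.26, -6.73 and -6.63. Thus the wildtype groups overlapped and the Pirc groups were far apart. Tac1 rose 61.1-fold with DSS in Pirc rats (log2 5.93, SE 0.26, adjusted p = 2.11e-08), its wildtype difference was -0.23 (SE 0.26, adjusted p = 0.754), and the interaction was 6.16 (SE 0.36, 95% interval 5.39 to 6.94, adjusted p = 1.61e-06). A second Tac1 probe gave 5.47 (SE 0.62, adjusted p = 0.00267).

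Genes of the cells in which Tac1 is known are given beside it. Among 20 enteroendocrine genes measured, Tac1 was the 1 called, and the median interaction was -0.03. Chga, the granule protein common to enteroendocrine cells, was at -0.28 (adjusted p = 0.77) and Tph1, the enzyme of serotonin synthesis there, at 0.22 (adjusted p = 0.84). Among 15 genes of enteric neurons and glia none (0) was called, with a median of -0.21. Uchl1, a ubiquitin hydrolase abundant in neurons, was at -6.22, -5.88, -6.37 and -6.47 in untreated and at -4.98, -4.10, -3.13 and -3.90 in DSS-treated Pirc rats, which did not overlap, while the wildtype groups, from -6.40 to -4.83 and from -6.65 to -5.23, did. It rose 4.62-fold in Pirc rats (adjusted p = 0.00242), was at -0.07 in wildtype rats (adjusted p = 0.951), and had an interaction of 2.28 (SE 0.58, adjusted p = 0.203). Stmn2, a neuronal tubulin-binding protein, passed in wildtype rats (2.15, adjusted p = 0.0228) and was at 1.10 in Pirc rats (adjusted p = 0.149). The summed signal of their 3 measured markers lay between 0.024 and 0.042 in all groups. The part of either cell type in the Tac1 difference was not tested.

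Tbxt, brachyury, a transcription factor of the embryonic mesoderm and notochord, was at -7.28, -5.62, -5.46 and -6.84 in untreated and at -1.81, -2.15, 0.67 and -0.70 in DSS-treated Pirc rats. In both wildtype groups no array (0 of 4 in each) showed it well above background. It rose 39.4-fold in Pirc rats (adjusted p = 6.07e-05), and the interaction was 5.003 (SE 0.74, adjusted p = 0.0178), a call that was lost without rats 11, 17, 21 or 25 and in the analysis of variance.

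Slc30a2, a zinc transporter that loads zinc into secretory vesicles, was at -5.96, -6.43, -7.31 and -6.41 in untreated and at -4.28, -3.91, -3.20 and -2.96 in DSS-treated Pirc rats. It was at -5.91, -5.47, -5.07 and -5.06 in untreated and at -7.01, -7.29, -7.20 and -5.79 in DSS-treated wildtype rats. The Pirc groups did not overlap, while the wildtype groups overlapped through rat 26. Slc30a2 rose 7.68-fold in Pirc rats (adjusted p = 0.000237), and the wildtype difference of -1.44 (SE 0.38) just missed the threshold (adjusted p = 0.0502, with 1 of 4 DSS arrays well above background). The interaction was 4.39 (SE 0.54, adjusted p = 0.00377).

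Tifa, an adaptor that passes signals from bacterial sugars to TRAF6 and NF-kappaB, was at -4.11, -4.02, -3.64 and -4.10 in untreated and at -1.83, -2.44, -1.97 and -1.10 in DSS-treated Pirc rats. Untreated wildtype rats had -4.63, -4.40, -4.93 and -4.36, and DSS-treated wildtype rats -4.53, -5.45, -5.42 and -4.64, so that the wildtype groups overlapped. It rose 4.39-fold in Pirc rats (adjusted p = 0.000232), and the interaction was 2.57 (SE 0.39, adjusted p = 0.0243), a call that was lost without rats 11, 13, 15, 17, 18, 23 or 25 and in the analysis of variance. Of the 23 genes of the NF-kappaB pathway measured, Tifa, whose promoter is printed above, was the 1 called, and their median interaction was -0.06. Rela, a subunit of NF-kappaB, had a DSS effect of 0.02 in Pirc and 0.13 in wildtype rats. Tnf, Tnfrsf1b and Icam1 rose in both genotypes, by 3.94, 3.55 and 2.58 in Pirc rats and by 2.64, 1.94 and 1.99 in wildtype rats.

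Calls of 2 dimmer genes rest on less. Aqp4, a water channel of the colon surface, had an interaction of 2.15 (SE 0.32, adjusted p = 0.0178) on a probe that was not well above background in any DSS-treated wildtype rat (0 of 4). Its other 2 probes gave 1.24 (adjusted p = 0.346) and -0.03 (adjusted p = 0.977), so the probes of Aqp4 disagree. The call was lost without rats 11, 17 or 25, under normexp, with the probes of a gene averaged and in the analysis of variance. Rpl39l1, a ribosomal protein gene, was well above background on 3 arrays of DSS-treated Pirc rats and on none (0) of the other 3 groups. It was at least 6.18-fold higher with DSS in Pirc rats, with an interaction of 3.34 (SE 0.49, adjusted p = 0.0178). That call was lost without rats 11, 13, 15, 21 or 25, in the analysis of variance, in a fit with 4 slide-by-row blocks, and under quantile normalization, normexp and the common floor. It was not tested where dim probes were left out.

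The 2 called probes without a name had interactions of 6.05 (SE 0.75) and 3.27 (SE 0.41), each with an adjusted p of 0.00377. The first stood at -3.56, -2.41, -2.49 and -2.44 in untreated and at 1.97, 0.72, 3.80 and 1.36 in DSS-treated Pirc rats, and at -3.65, -3.26, -4.27 and -3.27 in untreated and at -4.13, -4.98, -5.50 and -5.31 in DSS-treated wildtype rats. Groups did not overlap within either genotype. The second rose by 2.48 in Pirc rats (adjusted p = 0.000135) and differed by -0.79 in wildtype rats (adjusted p = 0.156).

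Within each slide and within each array row, which hold 2 rats of every group, the interaction was positive for all 13 called probes. The probes were chosen on these same rats, so the kept sign is a description and no sign of stability. The value lay between 8.61 and 10.63 for Defa8, 6.67 and 8.47 for Defa9, 7.28 and 10.99 for Defa6, 6.07 and 8.11 for RatNP-3b, 3.56 and 5.21 for Slc30a2, and 2.17 and 2.96 for Tifa. 

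Beyond the called genes and Defa24, the strongest positive interactions of named genes at an adjusted p between 0.05 and 0.20 were those of Cxcl17 and Alpl. Cxcl17, a chemokine of mucosal surfaces, lay between -8.81 and -6.71 in untreated and between -2.85 and 1.93 in DSS-treated Pirc rats. In wildtype rats it lay between -9.11 and -7.18 without and between -8.61 and -5.13 with DSS. It rose 160.3-fold in Pirc rats (adjusted p = 0.000192), and its interaction was 6.62 (SE 1.28, adjusted p = 0.105). Alpl, the tissue-nonspecific alkaline phosphatase, was at least 133.6-fold higher with DSS in Pirc rats (adjusted p = 0.00016), differed by 0.90 in wildtype rats (adjusted p = 0.704), and had an interaction of 6.50 (adjusted p = 0.104).

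Of the 17 genes of the interleukin 6 family and STAT3 that were measured, Il22 and Socs3 had an interaction at an adjusted p of 0.20 or less, while the median of the list was 0.06 and 8 of the 17 were negative. Il22, which lymphoid cells release and which acts on epithelium through STAT3, was well above background on 3 arrays of DSS-treated Pirc rats and on none (0) elsewhere, with an interaction of 2.69 (adjusted p = 0.104). Socs3, the feedback inhibitor that STAT3 induces, lay between -3.51 and -2.79 in untreated and between -2.07 and -1.13 in DSS-treated Pirc rats, while the wildtype groups, from -3.39 to -3.03 and from -3.28 to -2.63, overlapped. It rose by 1.60 in Pirc rats (adjusted p = 0.000292), with an interaction of 1.38 (adjusted p = 0.12). None (0) of the 17 was called for the interaction, 4 were called higher in Pirc rats (Il6r, Il22, Pim1 and Socs3) and 1 in wildtype rats (Il6r). Sting1, an adaptor protein of cytosolic DNA signalling, had an interaction of 2.13 (SE 0.35, adjusted p = 0.0544) and Il10, the anti-inflammatory cytokine, one of 3.49 (SE 0.80, adjusted p = 0.14).

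Of the 87 probes with a negative interaction at an adjusted p of 0.20 or less, 44 were called lower with DSS in Pirc rats and 12 were called higher in wildtype rats. None (0) of them passed for the interaction at 0.05. A pair of patterns of DSS effect stood among them, a fall in Pirc rats and a rise in wildtype rats. Of the named genes that were well above background on every array of at least 1 group, the 10 with the largest negative values were called lower in Pirc rats and not called in wildtype rats. Dio1, the deiodinase that activates thyroid hormone, was at 0.41, 0.04, -0.22 and -0.94 in untreated and at -3.03, -3.45, -3.17 and -2.34 in DSS-treated Pirc rats, and at 0.07, 0.69, 0.85 and 0.72 in untreated and at -0.21, -0.23, 0.24 and 0.22 in DSS-treated wildtype rats. It fell 7.07-fold in Pirc rats (adjusted p = 6.78e-05), and the interaction was -2.24 (SE 0.41, adjusted p = 0.0907).

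Slc26a3, the chloride and bicarbonate exchanger of the colon surface, was at 4.27, 4.00, 2.73 and 3.46 in untreated and at 1.98, 2.10, 1.24 and 2.25 in DSS-treated Pirc rats. In wildtype rats it lay between 3.52 and 4.62 without and between 3.97 and 4.29 with DSS. The Pirc groups did not overlap and the wildtype groups did. Slc26a3 fell 3.30-fold in Pirc rats (log2 -1.72, SE 0.32, adjusted p = 0.00268), differed by 0.24 in wildtype rats (adjusted p = 0.804), and had an interaction of -1.97 (SE 0.46, adjusted p = 0.149).

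Slc46a1, a proton-coupled folate transporter, fell 4.87-fold in Pirc rats (adjusted p = 0.00544), with levels from -1.33 to 0.32 without and from -3.75 to -1.19 with DSS, and an interaction of -2.999 (SE 0.68, adjusted p = 0.132). Casr, the calcium-sensing receptor, fell 7.48-fold (adjusted p = 0.000909, interaction -2.60, SE 0.66, adjusted p = 0.199). Edn3, endothelin 3, fell 4.16-fold in Pirc rats (adjusted p = 0.00676), and its wildtype rats ran from -1.64 to -0.92 without and from -2.11 to 0.53 with DSS, so that they overlapped (interaction -2.92, SE 0.63, adjusted p = 0.119). Slc30a10, a manganese exporter, was not well above background in any DSS-treated Pirc rat (0 of 4) and was at least 4.64-fold lower there than in Pirc controls (interaction -3.67, SE 0.78, adjusted p = 0.118, and 0.00732 in the fit with 4 slide-by-row blocks).

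The other genes of these 10 were Drc3, St3gal2, Trpv3 and Cnksr3. Drc3, a component of motile cilia, lay between 1.08 and 1.11 in untreated Pirc rats and fell to between -1.93 and -0.26 with DSS (adjusted p = 0.000322), with an interaction of -2.26 (SE 0.42, adjusted p = 0.102). St3gal2, a sialyltransferase, and Trpv3, a warmth-gated cation channel, fell 3.06-fold and 3.80-fold in Pirc rats, with interactions of -2.28 (adjusted p = 0.116) and -1.94 (adjusted p = 0.199).

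Cnksr3, a scaffold protein of aldosterone signalling, fell 3.12-fold in Pirc rats (adjusted p = 0.00108), with an interaction of -1.93 (SE 0.38, adjusted p = 0.113). Nr3c2, the mineralocorticoid receptor through which aldosterone acts, was at 2.05, 2.03, 1.99 and 1.72 in untreated and at 1.03, 0.97, 0.53 and 1.21 in DSS-treated Pirc rats, whereas all 8 wildtype rats lay between 1.85 and 2.31. Its interaction was -1.03 (adjusted p = 0.115). Sgk1, the kinase that aldosterone induces, lay between 1.84 and 2.17 without and between 0.21 and 1.58 with DSS in Pirc rats, and between 2.12 and 2.83 in all wildtype rats, with an interaction of -1.57 (adjusted p = 0.12). Nr3c2, Sgk1 and Cnksr3 were set side by side after their values were seen.

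Of the 12 probes called higher in wildtype rats, 7 carry a name, and their genes, which were picked out after their values were seen, were not called in Pirc rats. Myh6, a myosin heavy chain of cardiac muscle, was at -7.74, -9.28, -7.88 and -8.48 in untreated and at -9.14, -8.21, -7.92 and -8.20 in DSS-treated Pirc rats, and at -9.29, -8.80, -7.74 and -8.65 in untreated and at -5.05, -5.91, -6.66 and -5.84 in DSS-treated wildtype rats. The wildtype groups did not overlap and the Pirc groups did. Myh6 was at least 5.64-fold higher with DSS in wildtype rats (adjusted p = 0.00379), where 3 of the 4 DSS arrays were well above background, and its interaction was -2.78 (SE 0.59, adjusted p = 0.118). Myh7, another cardiac myosin heavy chain, had an interaction of -2.15 (adjusted p = 0.0753, and 0.028 with the 4 slide-by-row blocks) on a probe not well above background in either wildtype group.

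Mcpt8 and Mcpt10, serine proteases of the mast cell protease family, were well above background on all 16 arrays. They rose by 1.33 and 1.32 in wildtype rats (adjusted p = 0.0053 and 0.00837) and were at 0.05 and -0.22 in Pirc rats (adjusted p = 0.913 and 0.646), with interactions of -1.28 (adjusted p = 0.178) and -1.54 (adjusted p = 0.121). The other 3 are known from T cells. Cd7, a surface protein of T and natural killer cells, rose by 1.11 in wildtype rats (adjusted p = 0.0262, interaction -1.63, adjusted p = 0.123). Sh2d2a, a T cell adaptor, was at least 3.46-fold higher (adjusted p = 0.0056, interaction -1.84, adjusted p = 0.149), and Cxcr3, a chemokine receptor of activated T cells, at least 2.11-fold higher (adjusted p = 0.0158, interaction -1.38, adjusted p = 0.132). Of their wildtype controls, none (0 of 4) showed Sh2d2a or Cxcr3 well above background, and 1 of 4 wildtype DSS arrays showed Cxcr3 so.

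**Figure D3:**
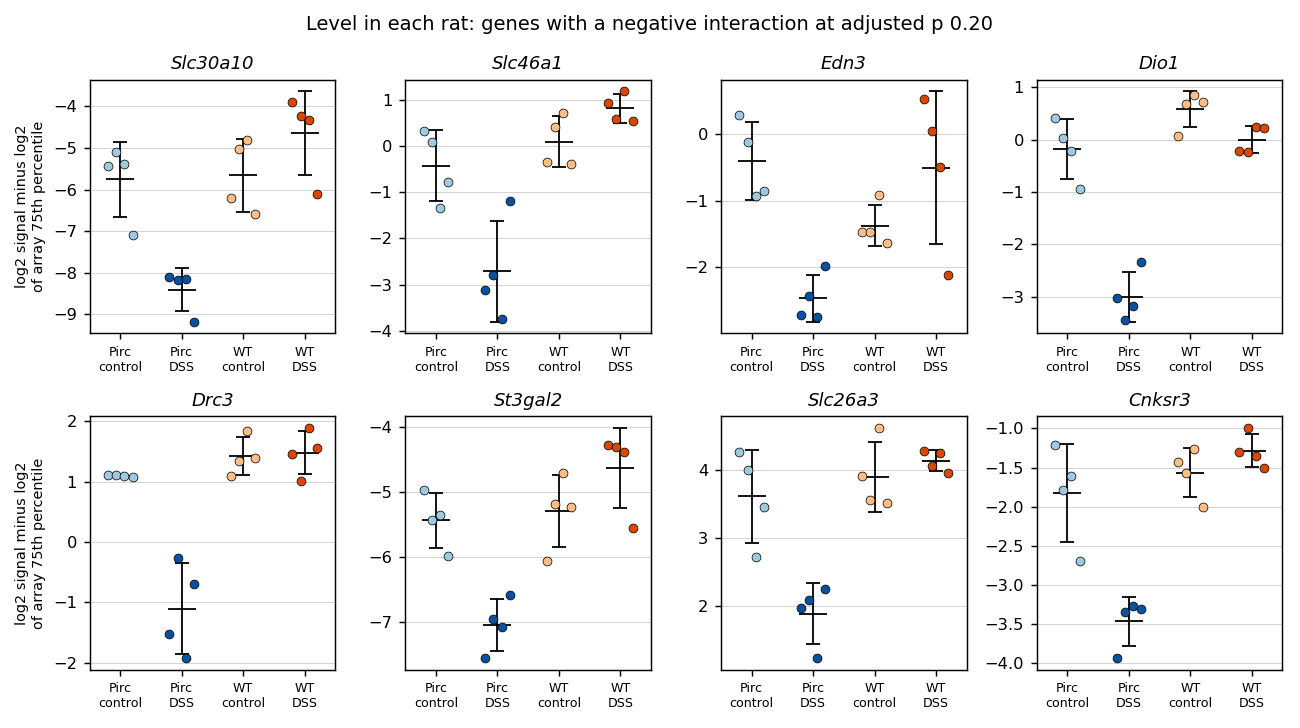
Levels of 8 genes with a negative interaction at an adjusted p of 0.20 or less in each of the 16 rats, by group (vertical axis: log2 signal minus log2 of the 75th percentile of the array, with its own range in each panel; points are rats, bars the group mean and SD). The DSS-treated Pirc rats form the lowest group mean in every panel, and the Slc30a10 levels of these rats were not well above background.

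Gene groups are described by their counts and their median interaction, which was -0.06 over all probes, and none of these lists was tested. With that median below 0, more of all probes had a negative than a positive interaction. A count of negative signs in a list therefore partly carries this background, whose share was not counted. Of all probes, 5.51% were called higher with DSS in Pirc rats and 2.37% in wildtype rats. Another 1.95% and 0.402% were called lower, and 0.0428% were called for the interaction. For several groups the DSS effects lay side by side in both genotypes. Of 23 fibroblast and matrix genes, 20 were called higher in Pirc rats and 12 in wildtype rats, all 12 of them in both. Their median DSS effect was 2.003 in Pirc and 1.976 in wildtype rats. Col1a1, a collagen I chain, rose by 2.53 and 2.18, and Fn1, fibronectin, by 2.08 and 1.98. Of 17 complement genes, 10 were called higher in Pirc and 8 in wildtype rats, with medians of 1.82 and 1.70. C3, the central component, was at 3.15 in Pirc rats (called) and at 0.83 in wildtype rats (not called), with an interaction of 2.32 (adjusted p = 0.23).

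Of 18 macrophage genes, 12 were called higher in Pirc and 10 in wildtype rats, with a median interaction of 0.22. The summed signal of the macrophage markers Cd68, Csf1r, Adgre1 and C1qa ran from 0.63 to 0.95 in untreated and from 1.78 to 2.71 in treated Pirc rats, and from 0.47 to 0.68 in untreated and from 0.97 to 2.18 in treated wildtype rats. Of 13 interleukin 1 family genes, 7 were called in Pirc and 5 in wildtype rats, with medians of 2.85 and 1.94. Il1b was close in both, at 4.80 and 4.59. Of 11 neutrophil chemokines and growth factors, 9 were called higher in Pirc and 5 in wildtype rats. Cxcl2 rose by 6.64 and 6.67 and Cxcl1 by 5.73 and 5.27, whereas Il17a, at 3.0004 and 1.01, and Il23a, at 4.46 and 1.85, passed in Pirc rats only, with interactions of 1.99 (adjusted p = 0.44) and 2.60 (adjusted p = 0.29).

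Genes of squamous, cornified epithelium had the second largest list median, 2.72, with no call (0) for the interaction among 24. Of these, 17 were called higher in Pirc rats and 6 in wildtype rats, with median DSS effects of 5.86 and 2.71. Another 1 was called lower in Pirc rats, and the interaction was negative at 5 of the 24. Tgm3 went the other way from most, at -2.07 in Pirc rats (adjusted p = 0.00204) and -0.17 in wildtype rats (adjusted p = 0.861). Its interaction was -1.90 (adjusted p = 0.241). Krt13, a keratin of squamous mucosa, rose by 10.52 in Pirc rats and was at least 123.6-fold higher in wildtype rats (adjusted p = 0.000925 and 0.0335), with an interaction of 3.55 (adjusted p = 0.62). Krt15, a keratin of basal cells, rose by 6.14 in Pirc rats (adjusted p = 0.00176) and was at 1.15 in wildtype rats (adjusted p = 0.694), with an interaction of 4.999 (adjusted p = 0.29). The summed signal of the squamous markers Krt5, Krt14, Krt13, Tp63 and Dsg3 ran from 3.13 to 4.03 in untreated and from 10.74 to 46.5 in treated Pirc rats, and from 4.06 to 4.38 in untreated and from 4.13 to 24.6 in treated wildtype rats. The treated wildtype rats thus ranged from the control level up into that of the treated Pirc rats. Without rat 26 the median interaction of the list was 1.45, and without rat 22 it was 3.93. Among the summed markers Tp63 was not called in either genotype, at 0.0007 in Pirc rats (adjusted p = 0.998) and 0.06 in wildtype rats (adjusted p = 0.877).

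In Pirc rats the urothelial markers Upk1a, Upk1b and Upk3a rose along with the squamous genes, by 3.44, 1.13 and 1.58. In wildtype rats, where some squamous genes were called higher, these 3 markers were at 0.30, 0.04 and 0.28 and were not called. Upk1a, a plaque protein of the bladder lining, was at -3.41, -3.50, -3.74 and -3.07 in untreated and at -1.50, -0.27, 1.36 and 0.44 in DSS-treated Pirc rats, while all wildtype rats lay between -3.70 and -2.63. It rose by 3.44 in Pirc rats (adjusted p = 0.000202), with an interaction of 3.13 (adjusted p = 0.108). Upk2, another plaque protein, was well above background on no array. Of 5 urothelial genes, 4 were called higher in Pirc and 1 in wildtype rats. The summed signal of the 4 uroplakin markers ran from 0.60 to 3.11 in treated Pirc rats and from 0.21 to 0.38 in all other rats. Whether squamous or urothelial cells in the samples bear on the other interactions was not tested.

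All 22 cell cycle genes had a positive interaction, but none (0) passed. The median interaction was 0.58, from a median DSS effect of 0.63 in Pirc and 0.08 in wildtype rats. Rrm2, a ribonucleotide reductase subunit, rose by 1.67 in Pirc rats (adjusted p = 0.00506) and was at 0.54 in wildtype rats (adjusted p = 0.499), and Ccna2 and Birc5 were the other 2 that passed in Pirc rats, at 1.08 and 1.03. Of 15 stem cell genes and Wnt targets, 12 had a positive interaction and none (0) passed. Axin2, a target and inhibitor of Wnt signalling, was at 0.55 in Pirc and -0.42 in wildtype rats, with an interaction of 0.97 (adjusted p = 0.2), and Lgr5, the receptor that marks crypt stem cells, at -0.07 and 0.03 on its brighter probe (interaction -0.10, adjusted p = 0.951). The probes of Lgr5 disagree. The other was at 0.46 in Pirc rats (adjusted p = 0.579) and at least 2.60-fold lower with DSS in wildtype rats (adjusted p = 0.0209), where no DSS array showed it well above background (0 of 4), with an interaction of 2.43 (SE 0.61, adjusted p = 0.199).

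T and natural killer cell genes had a median interaction below that of all probes. Of 20, 18 had a negative interaction, with a median of -0.62, and none (0) passed. The median DSS effect was 0.25 in Pirc and 0.89 in wildtype rats, in which Gzma, a granule protease (1.38, adjusted p = 0.0445), Nkg7 (1.12, adjusted p = 0.00323) and Il2rb, a receptor chain for interleukins 2 and 15 (1.27, adjusted p = 0.00333), passed. In Pirc rats the same 3 genes were at 0.15, 0.20 and 0.53 and did not pass, and Cd2 was called in both genotypes. The sum of the T cell markers Cd3e, Cd3d, Cd8a and Cd4 overlapped between all 4 groups, from 0.36 to 0.75. Of 27 interferon response genes, 20 had a negative interaction, 4 were called higher in Pirc and 7 in wildtype rats. Cxcl10, a chemokine that draws T cells, was at -1.38 in Pirc rats (adjusted p = 0.0839) and 1.13 in wildtype rats (adjusted p = 0.271), with an interaction of -2.51 (adjusted p = 0.25).

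Lists of differentiated epithelium had median interactions below that of all probes as well. Of 13 goblet cell and mucus genes, 9 had a negative and 4 a positive interaction, with a median of -0.59 and no call (0). Among the positive ones was Retnlb, at 0.83 (adjusted p = 0.905). Clca1, a secreted component of colonic mucus, had a DSS effect of -2.07 in Pirc rats (adjusted p = 0.00325) and of -0.32 in wildtype rats (adjusted p = 0.791), with an interaction of -1.75 (adjusted p = 0.31). Of 20 small intestinal enterocyte genes, 16 had a negative interaction, with a median of -0.53. Amn, part of the cobalamin receptor, was at -3.21 in Pirc rats (adjusted p = 0.000713) and -0.58 in wildtype rats (adjusted p = 0.65), while Fabp6 and Mttp fell alike in both, at -1.71 and -1.22 in Pirc and -1.73 and -1.22 in wildtype rats. Of 27 genes of the distal colon surface, 19 had a negative interaction, with a median of -0.26, and the 3 with an adjusted p of 0.20 or less were Slc26a3, Sgk1 and Nr3c2. The other 8 had a positive interaction, the largest that of Slc9a3, at 1.43 (adjusted p = 0.683). The summed signal of the 9 colon epithelium markers ran from 197.9 to 264.6 in treated Pirc rats and from 298.2 to 365.4 in treated wildtype rats, against 212.5 to 274 and 227.9 to 323.5 in their controls. Their median interaction was -0.37, but Aqp8, Car1 and Cdx2 were at 1.40, 0.91 and 0.50 (adjusted p = 0.62, 0.81 and 0.61).

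Of 15 circadian clock genes, 13 had a negative interaction, with a median of -0.59, and none (0) passed. Npas2, a partner of the clock activator, had a DSS effect of -1.52 in Pirc rats (adjusted p = 0.00126) and of -0.34 in wildtype rats (adjusted p = 0.589). Of the 26 respiratory chain genes none (0) was called in any of the comparisons, with median DSS effects of 0.05 and -0.01.

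**Figure D4:**
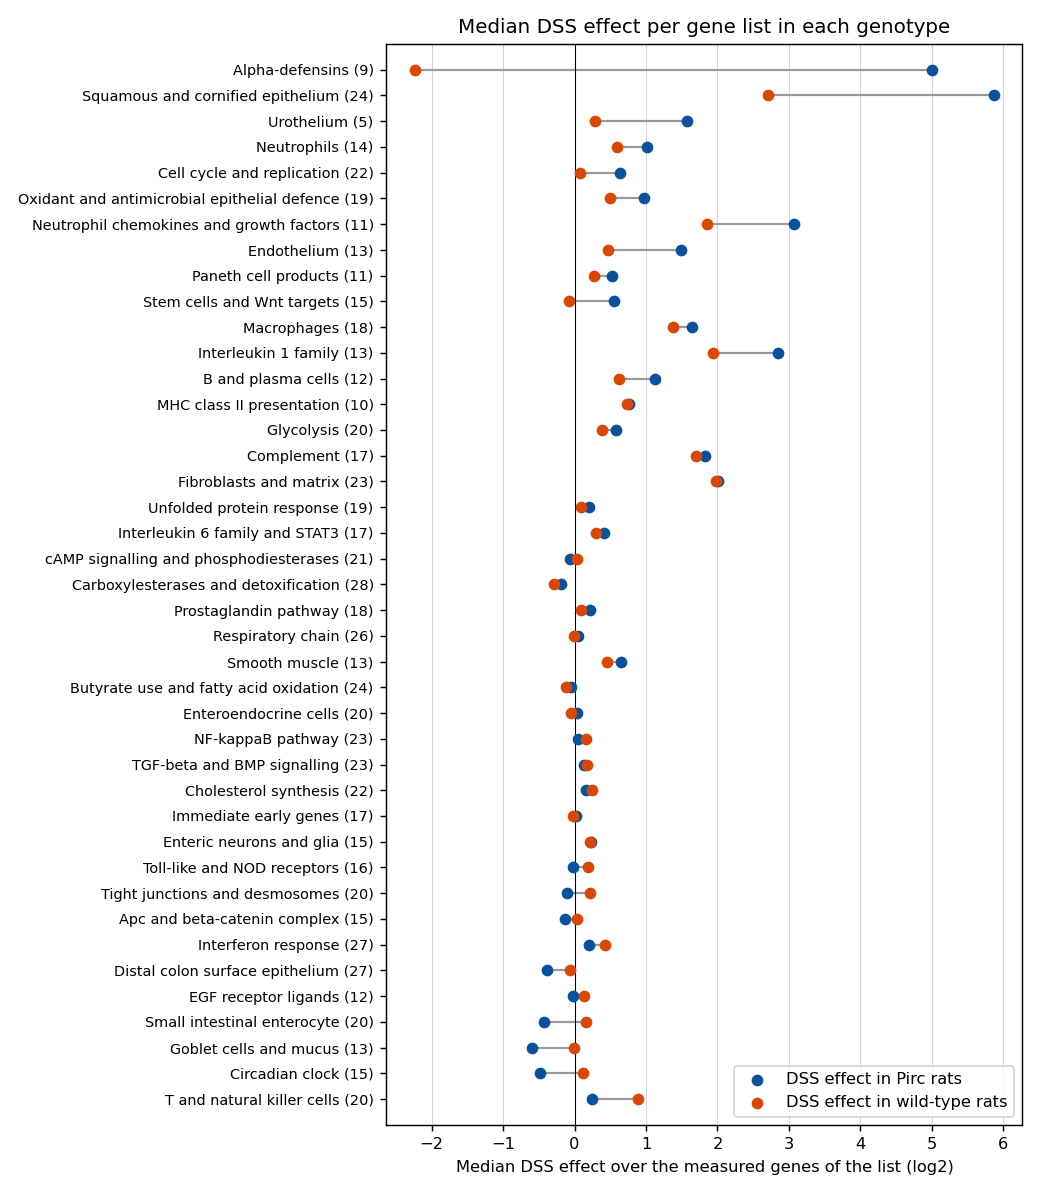
Median DSS effect (log2) over the measured genes of each of 41 lists in Pirc rats (blue) and wildtype rats (orange), with the number of genes measured in brackets and lists ordered by their median interaction. Alpha-defensins stand at the top, at 5.01 and -2.23, and are the list whose medians lie farthest apart, while the matrix and complement lists have nearly equal medians near 2 and 1.7.

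Apc, the mutated gene, was at -3.09, -3.40, -3.12 and -3.30 in untreated and at -3.64, -3.84, -4.08 and -3.70 in DSS-treated Pirc rats, and at -3.39, -3.35, -2.94 and -3.33 in untreated and at -2.82, -2.79, -3.11 and -3.24 in DSS-treated wildtype rats. It was 1.503-fold lower with DSS in Pirc rats, with no overlap (adjusted p = 0.0173, under the factor of 2), and differed by 0.26 in wildtype rats (adjusted p = 0.439). The interaction was -0.85 (SE 0.21, adjusted p = 0.199). Pde4b, a cAMP phosphodiesterase that the study knocked out in mice, was not well above background in either wildtype group, rose by 1.73 in Pirc rats (adjusted p = 0.00269) on a probe well above background on 3 of 4 DSS arrays, and had an interaction of 0.84 (SE 0.46, adjusted p = 0.542).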

How the data were processed

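RNA of the normal distal colon of 16 rats was amplified, labelled with Cy3 and hybridised to single-colour Agilent rat arrays, 1 rat an array. The authors deposited the scanner output of Agilent Feature Extraction 10.7.3.1, whose processed signal is a linear intensity after background subtraction, with no scaling between arrays. The submitters' processing notes name Partek, with no version. The number of arrays limits the precision.

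Of 62976 spots an array, 4259 controls were left out, and the other 58717 belong to 30367 probes. From the log2 signal of each spot the log2 of the array's 75th percentile was subtracted, and spots of 1 probe were averaged, leaving out those with an outlier flag. Between 71.1% and 80.3% of spots were well above background, and 0 were saturated. Where no array of a group showed a probe well above background (a share of at least 0.5 of its spots), its fold is a bound, taken from the higher, per array, of the lowest signal among probes well above background and the probe's own. Probes were named by accession in a RefSeq table of GRCr8 (18006 matched, 15159 symbols), and since the array design predates that assembly no probe positions are given.

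The contrasts were fitted in limma 3.58.1 under R 4.3.3 (lmFit, contrasts.fit, eBayes, all 16 arrays, 1 mean per group) with Benjamini-Hochberg adjustment over all probes and the factor of 2 of the study's 2-way analysis of variance. P-values are two-sided. In simulated arrays with 200 changed probes, 68.6% of those changed by 2 (log2) and 93.7% of those changed by 4 were called for the interaction, with 9 other calls.

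The genes named are those called, up to 10 in each direction at an adjusted p of 0.20, those called in opposite directions, Apc and Pde4b. Some of the extremes of 41 lists (727 of 818 genes measured, the brightest probe each) are named too. Not all list extremes are named, and which ones are was chosen with their values known. Others were named after their values were seen. The members and lists were chosen with earlier results of these data known. The alternatives were quantile normalization, scaling to bright probes, normexp with an offset of 50 on the median signal, a dim filter, a common floor, outlier spots kept, blocks by slide, by array row or by each slide-by-row position, unmoderated analysis of variance, looser thresholds, averaging over the probes of a gene, and each rat left out.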

Additional observations from a re-analysis of the deposited data

Results flagged for a closer look

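The interaction passed the threshold at 13 probes, which are the results where the DSS effects of the 2 genotypes differed by a test of the difference itself. Its values were 9.62 for Defa8, 9.13 for Defa6, 7.57 for Defa9, 7.09 for RatNP-3b, 6.16 and 5.47 for the 2 Tac1 probes, 6.05 and 3.27 for the 2 probes without a name, 5.003 for Tbxt, 4.39 for Slc30a2, 3.34 for Rpl39l1, 2.57 for Tifa and 2.15 for Aqp4.

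In 7 of 104 groups of 4 rats, 1 rat stood apart from the other 3 beyond the 95% limit of Dixon's test, where chance alone gives about 1 in 20, or 5.2. These were RatNP-3b in untreated Pirc rat 11 (-2.15), Tac1 in untreated Pirc rat 15 (-5.09, on the brighter probe), Cxcl17 in DSS-treated wildtype rat 14 (-5.13), Slc30a10 in DSS-treated Pirc rat 24 (-9.17, not well above background), St3gal2 in DSS-treated wildtype rat 26 (-5.55), Cnksr3 in DSS-treated Pirc rat 12 (-3.94) and Apc in untreated wildtype rat 21 (-2.94).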

How the results depend on the processing

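The 13 interaction calls became 31 under normexp, 27 with a common floor, 8 under the analysis of variance without moderation and 170 at an adjusted p of 0.20, and stayed within 1.5 times under the other settings that kept all 16 rats. Of the 13 probes, 10 were called under normexp, 11 with the common floor, 12 under quantile normalization and with the dim filter, and 8 under the analysis of variance. Positive calls made up 100% of the 13, 83.9% under normexp and 48.8% at 0.20. Leaving out 1 rat gave 8 to 63 calls, with 63 without Pirc rat 12, 35 without rat 26, 27 without rats 16 or 22, 25 without rat 24, and 8 without rats 11 or 25. Both Tac1 probes, Defa8, Defa9, RatNP-3b, Slc30a2 and both unnamed probes were called with each of the 16 rats left out, Defa6 and Aqp4 in 13, Tbxt in 12, Rpl39l1 in 11 and Tifa in 9. Defa6, Tifa, Aqp4, Tbxt and Rpl39l1 were lost under the analysis of variance.

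The 2265 calls in Pirc rats became 1148 under normexp, 4451 with no minimum change (55.6% higher against 73.8%) and 1408 with probes of one gene averaged, and 1799 to 2555 with 1 rat left out. Under quantile normalization 63.2% were higher. The 841 calls in wildtype rats became 235 under normexp and 1417 at 0.20, and 375 to 1178 with 1 rat left out (375 without rat 14, 446 without rat 18, 456 without rat 17, 503 without rat 21). Under quantile normalization 72.6% of them were higher, against 85.5%. The 2 opposite calls became 5 under quantile normalization and with no minimum change, 1 under normexp, 4 with the dim filter, the slide block or averaged probes, 9 at 0.20, and 1 to 7 with 1 rat left out. The interaction of Tnc turned from -1.07 to 0.21 under normexp and 0.24 with the common floor, and that of Fabp1 ranged from -0.0301 (without Pirc rat 16) to 2.43 with 1 rat left out, against 1.74. The alpha-defensin median was 5.88 under normexp. The dim filter and the averaged probes change the set of probes tested by construction. With 1 rat left out the interaction count moved both down and up. The cause of the changed counts was not tested for any setting. No paired analysis was possible because the groups share no replicate numbers. A fit with 4 slide-by-row blocks (1 rat of every group in each, chosen after seeing the data) gave 14 interaction calls, of which 11 were among the 13 (not Defa6 and Rpl39l1, adjusted p = 0.0562 each), with Slc30a10, Myh7 and Cyp1b1 added, and 85.7% were positive, 2259 and 765 calls within the genotypes, and 4 opposite calls.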
